A study of Mus musculus with 36 samples.

Results

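The surrogate light chain genes Igll1, Vpreb1, Vpreb2 and Vpreb3 were described through the DNase I hypersensitive sites (DHS) that lie on them or near them. A DHS counted as a member when it overlapped 1 of the 4 gene bodies of the GENCODE vM21 annotation, extended by 20 kb on each side. This rule used position and no measured value. It took 17 of the 52788 DHS in the table, of which 6 fell to the shared window of Igll1 and Vpreb1, which are neighbours on chromosome 16, 4 to Vpreb2 further along the same chromosome and 7 to Vpreb3 on chromosome 10. All 17 had a value in each of the 36 libraries, so no member was lost to a filter here. DHS removed earlier by the authors' filter on low reads are not analysed here. The values were measured in B3, a mouse pre-B cell line that models the pre-BI stage (Hardy fraction C′). An Ikaros line carried an MSCV retroviral vector encoding HA-Ikaros fused to ERt2, the hormone-binding domain of the estrogen receptor, followed by an IRES and GFP. A Control line carried the same vector with ERt2 and without Ikaros. The times were 0, 2, 6, 12, 18 and 24 h, which with the 2 lines makes 12 groups of 3 replicates. Replicates 4, 5 and 6 belong to batches 11, 12 and 13, and the study's methods call them biological replicates. Both lines received 0.5 µM 4-hydroxytamoxifen, which lets the fusion protein enter the nucleus, for the stated time before collection. According to the methods the 0 h cells had none and were obtained separately, whereas the labels list the drug for every sample, so at 0 h collection and time cannot be told apart.

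Igll1 encodes lambda5 and the Vpreb genes encode VpreB proteins, and together they stand in for an immunoglobulin light chain. In pro-B and large pre-B cells they pair with a newly made heavy chain to form the pre-B cell receptor, which tests the heavy chain and drives a burst of division, and the genes are shut off as cells become small resting pre-B cells. Their promoters are known to be activated by EBF1, E proteins and PAX5, and Ikaros family proteins are known to bind there and to lower Igll1 expression. VPREB3 is a relative that binds newly made immunoglobulin chains inside the cell and is not a part of the surface receptor. A DHS is a stretch where DNase I cuts often because the DNA is not wrapped in nucleosomes, and active promoters are the usual example.

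The stretches upstream of the 4 starts are shown because the DHS at these starts carry the comparison, and because Vpreb1 and Vpreb2 are so alike that short reads can fail to tell them apart. They are RefSeq promoter windows of build GRCm38.p6 (mm10), cut at the annotated start, and all 4 genes had an entry. The Igll1 stretch is chr16:16863986-16864235 on the minus strand, the Vpreb1 stretch chr16:16869256-16869505 on the minus strand, the Vpreb2 stretch chr16:17980315-17980427 on the plus strand and the Vpreb3 stretch chr10:75948050-75948299 on the plus strand. Capitals mark each match on either strand. The letters are GGGAA (a core that Ikaros proteins bind), CCCNNGGG (the core of the EBF1 palindrome), and the E-boxes CAGCTG and CAGGTG.
Igll1: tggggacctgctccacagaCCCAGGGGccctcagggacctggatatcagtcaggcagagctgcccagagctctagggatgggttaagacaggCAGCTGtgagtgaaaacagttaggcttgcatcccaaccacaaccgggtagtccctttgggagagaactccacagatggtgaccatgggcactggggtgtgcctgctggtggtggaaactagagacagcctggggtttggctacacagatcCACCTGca
Vpreb1: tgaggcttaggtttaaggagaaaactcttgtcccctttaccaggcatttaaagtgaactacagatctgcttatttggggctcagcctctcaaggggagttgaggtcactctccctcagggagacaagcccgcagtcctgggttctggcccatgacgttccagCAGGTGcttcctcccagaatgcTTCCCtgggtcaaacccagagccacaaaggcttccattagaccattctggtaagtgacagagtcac
Vpreb2: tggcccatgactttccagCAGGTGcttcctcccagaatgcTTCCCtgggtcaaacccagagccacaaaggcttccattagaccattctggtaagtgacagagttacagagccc
Vpreb3: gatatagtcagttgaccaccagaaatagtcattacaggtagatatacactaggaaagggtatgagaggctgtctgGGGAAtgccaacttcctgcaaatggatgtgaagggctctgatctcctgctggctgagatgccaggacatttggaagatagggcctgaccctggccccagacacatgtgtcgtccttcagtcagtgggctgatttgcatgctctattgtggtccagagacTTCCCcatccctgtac
The Igll1 stretch holds 1 match each to CCCNNGGG, CAGCTG and CAGGTG, the last ending next to the start, and none to GGGAA. Vpreb1 and Vpreb2 each hold 1 CAGGTG and 1 GGGAA, and Vpreb3 holds 2 GGGAA. The start DHS cover the whole Igll1 and Vpreb2 stretches, but only bases 73 to 185 of Vpreb1 and bases 170 to 250 of Vpreb3. The Vpreb1 GGGAA (bases 185 to 189) runs past its DHS, which holds no whole GGGAA. The first Vpreb3 GGGAA (bases 76 to 80) lies outside its DHS. Of 32851 mouse promoter windows, the 250 bases before the start hold GGGAA in 56.2%, its longer form TGGGAA in 21.6%, CCCNNGGG in 11.8%, CAGCTG in 13.0% and CAGGTG in 17.2%. In the last 113 bases, the length shown for Vpreb2, the share is 30.6% for GGGAA and 7.99% for CAGGTG. A match is a description of the letters, and no match says only that the letters are not in the window. Other forms of a motif were not searched, so no match does not mean that a protein has no site. From base 145 on, the Vpreb1 stretch equals the Vpreb2 stretch at 104 of 106 bases (98.1%). The authors trimmed reads to 36 bases, and 77 of the 466 stretches of 36 bases in the Vpreb2 start DHS (16.5%) also occur in the joint Igll1 and Vpreb1 window, while none in the Vpreb1, Igll1 and Vpreb3 start DHS occurs elsewhere in the genome. Values of the Vpreb2 start DHS are therefore uncertain, by an amount and in a direction that this share does not give. It counts exact single stretches, whereas the authors mapped reads in pairs.

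Values are log2 of RPKM (reads per kilobase of DHS, scaled to the size of the library) after the authors' TMM scaling and noise correction. RPKM divides by length, but narrow and broad DHS came from separate rounds of peak calling. Levels of DHS of unequal width can therefore be compared only roughly. Library medians over all DHS lay between 3.90 and 4.11. The number of reads behind each value is not given, and the study states only a minimum depth per replicate and a filter on low reads. Precision therefore rests on the 3 libraries of a group. By width and level, the DHS 0.9 kb upstream of Vpreb2 (130 bp, 13.9 RPKM) holds fewer reads than that at the Igll1 start (614 bp, 37.9 RPKM). The 12 group means of the whole table span 6 dimensions of 11, so the 6 times are not 6 independent measurements of a DHS. The pre-B label was checked on promoter DHS: among B lineage genes, Cd79a, Cd79b, Ebf1, Pax5, Blnk, Rag1, Il7r and Cd24a had 1 or more (levels 3.91 to 5.99), and Rag2 and Dntt had none. For other lineages it was 2 of 8 T cell genes (Tcf7 and Lck, levels 3.92 to 4.24), 1 of 7 myeloid genes (Lyz2, level 3.29) and 0 of 2 muscle genes, with Cd3e and Mpo lacking a promoter DHS. Of erythroid and megakaryocyte genes, Klf1 and Pf4 had a promoter DHS, and Gata1, Epor and Itga2b had none. These are bulk libraries, in which fewer cells with an open site and less cutting per cell cannot be told apart. The digestion was titrated by the authors with qPCR at chosen promoters, and Igll1 was 1 of the accessible ones.

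By their values, the DHS at the starts of Igll1 and Vpreb1 stood high among all DHS, and that of Vpreb2 did not. These DHS differ in width (614, 112 and 500 bp, and 131 bp at the Vpreb3 start), so the ranks are rough. Averaged over the 36 libraries, the DHS over the Igll1 start (chr16:16863839-16864453, over the first exon and the 5′ flank) had a level of 5.24, about 37.9 RPKM, above 93.5% of all DHS. The DHS 66 bp upstream of the Vpreb1 coding start (chr16:16869321-16869433) had 5.20, above 92.9% of DHS. The DHS over a far, noncoding start of Vpreb1 (chr16:16870498-16871026) had 5.42, the highest of the 17, and it is at the same time the promoter DHS of Top3b, a DNA topoisomerase gene, so it cannot be given to either gene alone. The Vpreb3 start DHS (chr10:75948219-75948350) had 4.96, above 88.7% of DHS. Vpreb3 also has an annotated protein-coding start further upstream (chr10:75943057), with no DHS within 1000 bp. At Vpreb2, the DHS over the start (chr16:17980031-17980531) had 3.75, the lowest of the 17, and a narrow DHS 0.9 kb upstream (chr16:17979387-17979517) had 3.80, above 37.2% and 40.6% of DHS. Against promoter DHS alone, the Igll1 start stood above 80.0%, the Vpreb1 coding start above 78.4%, the Vpreb3 start above 68.2% and the Vpreb2 start above 14.8%. The Vpreb2 level carries the uncertainty from shared stretches given above. The plot of levels at the starts gives all values of these 6 DHS.

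**Figure D1:**
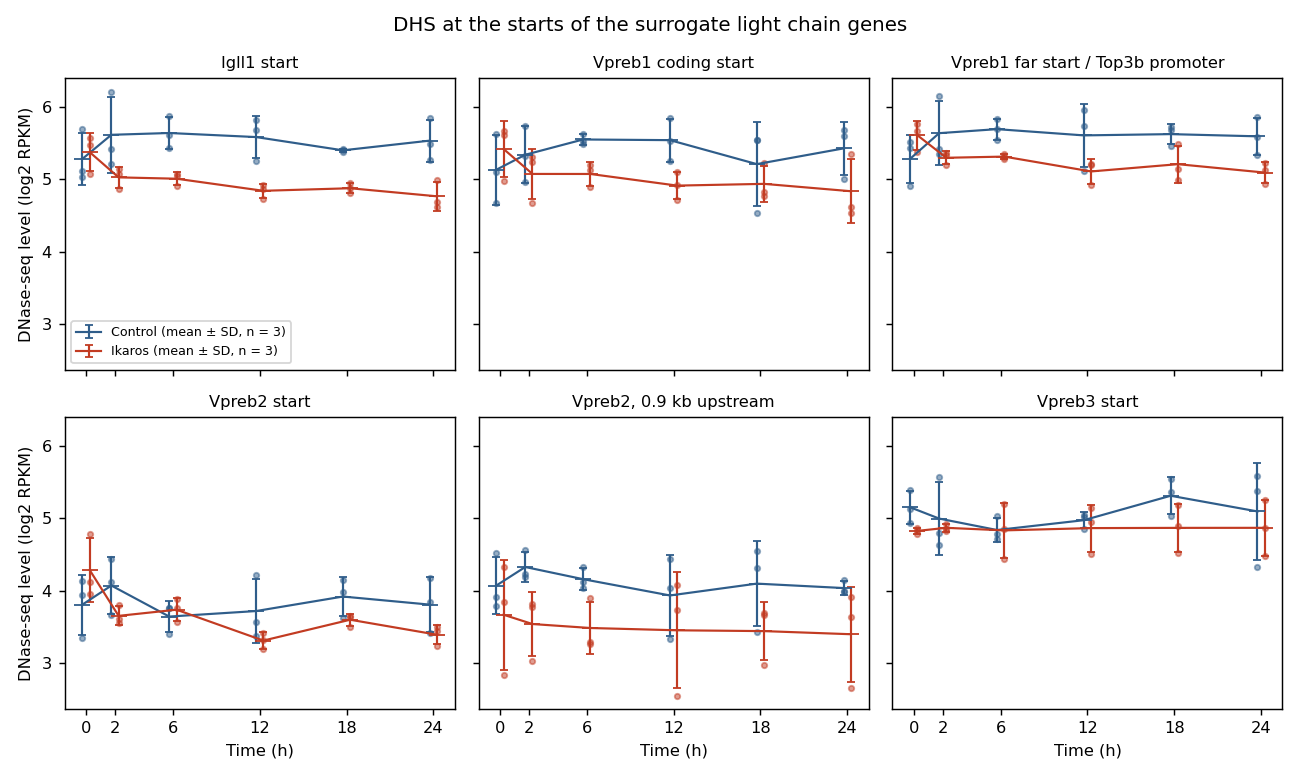
DNase-seq level (log2 RPKM) of the 6 DHS within 1000 bp of a start of the 4 genes against time in hours, for the Control line (blue) and the Ikaros line (red). Dots are the 3 replicates and bars the mean ± SD. At the Igll1 start all Ikaros dots lie below all Control dots from 2 h to 24 h, while at the Vpreb3 start the lines overlap at each time after 0 h.

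None of the 17 DHS passed the threshold in any comparison of the lines or of the times. With limma, an adjusted p under 0.05 (Benjamini-Hochberg over all 52788 DHS) was reached by 0 of 17 at 0, 2, 6, 12, 18 and 24 h, and an unadjusted p under 0.05 by 1, 2, 1, 5, 3 and 4 of 17. Over all DHS the unadjusted shares at these times were 28.1%, 10%, 13.8%, 15.8%, 13.1% and 14.7%. The shares of all DHS called after adjustment were 12.9%, 0.195%, 0.578%, 1.31%, 0.699% and 1.33%. When the line difference at 24 h was set against that at 0 h, 0 of 17 were called (5 at an unadjusted p under 0.05), against 6.26% of all DHS (25.1% unadjusted). Set against 2 h, it was 0 of 17 (0 unadjusted), with 0% of all DHS called (2.85% unadjusted). The F-tests called 0 of 17 for the interaction of line and time (0 unadjusted), against 1.1% of all DHS (14.4% unadjusted). They called 0 of 17 for change over time in Ikaros (1 unadjusted), against 2.29% (12.7%), and 0 of 17 for change over time in Control (1 unadjusted), against 0.148% (12.6%). Apart from 0 h and the change from it, where the shares called were larger, few DHS of the whole table were called, so a count of 0 among 17 lies close to the background.

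By sign, the members stood on one side more than the table did. At 0 h the Ikaros mean was above the Control mean in 13 of 17, with a median difference of 0.13, beside -0.060 over all DHS and 0.34 over the 13657 promoter DHS. It was below in 16 of 17 at 2 h (median -0.34, all DHS 0.011), in 13 of 17 at 6 h (-0.14, all DHS 0.00475) and in 16 of 17 at 12 h (-0.37, all DHS 0.048). It was also below in 15 of 17 at 18 h (-0.32, all DHS 0.027) and in 16 of 17 at 24 h (-0.23, all DHS 0.055). Over all DHS the Ikaros mean was below in 54.4%, 48.7%, 49.6%, 45.2%, 47.1% and 44.0% at 0, 2, 6, 12, 18 and 24 h. The median over promoter DHS was -0.018, 0.078, -0.11, -0.030 and -0.046 at 2, 6, 12, 18 and 24 h. Neighbouring DHS share cells and libraries, so the 17 are not independent. The map of differences shows each DHS at each time.

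**Figure D2:**
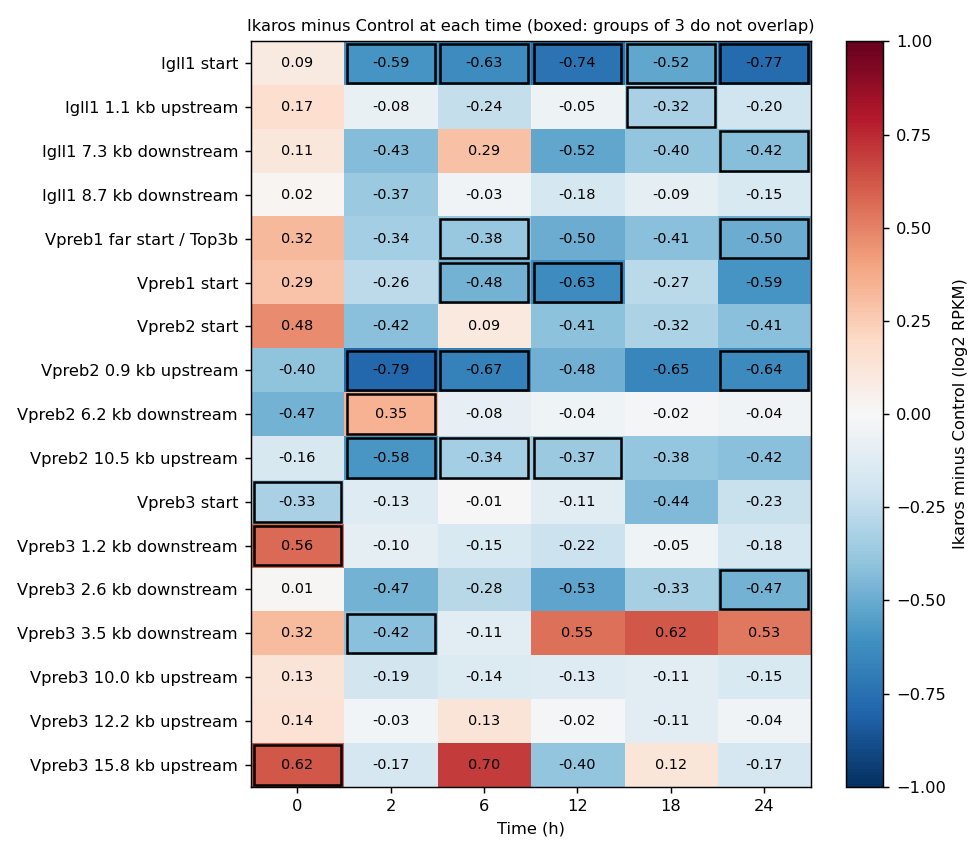
Ikaros minus Control (log2 RPKM, difference of 2 means of 3 replicates) for the 17 DHS in rows and the 6 times in columns, blue where Ikaros is lower. A box marks groups whose replicates do not overlap. The Igll1 start row is boxed from 2 h to 24 h, and 16 of 17 rows are below 0 at 24 h, with Vpreb3 3.5 kb downstream the exception.

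The Igll1 start DHS had the smallest adjusted p of the 17 at 6, 12, 18 and 24 h, none under 0.05. At 24 h its start DHS had 4.99, 4.61 and 4.68 in Ikaros replicates 4, 5 and 6 and 5.27, 5.48 and 5.84 in Control. All 3 Ikaros values lay below all 3 Control values. The means were 4.76 ± 0.20 and 5.53 ± 0.29 (SD, n = 3), a difference of -0.77 ± 0.20 (SE; 95% interval -1.18 to -0.35; limma adjusted p = 0.0524), which is a 1.70-fold lower level in Ikaros. The unadjusted interval leaves out 0 and the adjusted p lies just over the threshold. At 0 h the values were 5.07, 5.47 and 5.57 in Ikaros and 5.69, 5.12 and 5.03 in Control, which overlap, with a difference of 0.092 ± 0.20 (adjusted p = 0.809).

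At the times between, the Igll1 start values of Ikaros replicates 4, 5 and 6 were 4.86, 5.14 and 5.08 at 2 h, against 6.21, 5.42 and 5.21 in Control. At 6 h they were 5.07, 4.91 and 5.04, against 5.43, 5.61 and 5.87. The Ikaros values lay below the Control values without overlap at both times, and Control replicate 4 at 2 h was the highest of the 36 libraries. At 12 h the Ikaros values were 4.86, 4.73 and 4.92 and the Control values 5.25, 5.81 and 5.68. At 18 h they were 4.94, 4.80 and 4.87 and 5.41, 5.38 and 5.41. There was again no overlap. The differences were -0.59 at 2 h (adjusted p = 0.258) and -0.63 at 6 h (0.145). Those of the later pair were -0.74 at 12 h (0.0612) and -0.52 at 18 h (0.245). Groups with all 3 Ikaros below all 3 Control values at each time from 2 h to 24 h were found at 0.665% of all DHS and at 1 of the 17, the Igll1 start.

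Within a batch, Ikaros minus Control at the Igll1 start in replicates 4, 5 and 6 was -0.62, 0.36 and 0.54 at 0 h and -1.35, -0.28 and -0.13 at 2 h. In the same order it was -0.35, -0.70 and -0.83 at 6 h and -0.39, -1.08 and -0.75 at 12 h. The last times gave -0.47, -0.57 and -0.53 at 18 h and -0.28, -0.87 and -1.15 at 24 h. The sign at 0 h differed between batches, and from 2 h to 24 h Ikaros was lower in 15 of 15 pairs of a time and a batch. That count follows from the groups not overlapping at these times and is not a further result. Ikaros was lower in all 15 pairs at 1.83% of all DHS and at no other of the 17. The change of the difference from 0 h to 24 h was -0.86 ± 0.29 (adjusted p = 0.0642), or -0.98 relative to the median of all DHS, which was 0.12 as deposited and -0.04 after median centring. Relative to the median of promoter DHS (-0.42) it was -0.44, and the median change of the 17 (-0.37) was no larger in size than that of promoter DHS. In order of level, the Control means from 2 h to 24 h (5.64 down to 5.40) came first, then Ikaros 0 h (5.37) and Control 0 h (5.28), then Ikaros 2 h (5.02) and 6 h (5.01), 18 h (4.87), 12 h (4.84) and 24 h (4.76). Of the 11 steps between neighbours, 1 was larger than the SD of both groups, from Ikaros 6 h to 18 h, and the F-test over time in Ikaros gave an adjusted p of 0.495.

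The values of the Igll1 start DHS moved in both directions under the alternatives. Without replicate 4 in all groups the difference at 24 h was -1.01 (adjusted p = 0.0207), and that at 2 h shrank to -0.21 (0.682), or to -0.29 without the 1 Control library of replicate 4 at 2 h. Its change up to 24 h, taken from 0 h, was -1.46 (0.0126) without replicate 4 and -0.44 (0.574) without replicate 6. It was -0.50 (0.217) with quantile normalization and -0.55 (0.269) with trends in level, GC content and width removed. With quantile normalization the difference at 24 h was -0.67 (0.0300), and with a spread per group its adjusted p was 0.00454, while over all alternatives the adjusted p at 24 h ran from 0.00454 to 0.444.

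The other 3 DHS of the Igll1 neighbourhood lie between genes. The DHS 1.1 kb upstream (chr16:16865097-16865681) had a level of 4.93, with 4.82, 4.63 and 4.72 in Ikaros and 4.74, 5.09 and 4.94 in Control at 24 h, which overlap (difference -0.20 ± 0.23, adjusted p = 0.761). Downstream of the gene, the narrow DHS at 7.3 kb (chr16:16856555-16856685) had 3.93, 3.98 and 3.75 in Ikaros and 4.02, 4.59 and 4.33 in Control, without overlap (difference -0.42 ± 0.31, adjusted p = 0.583). At 6 h its sign was the opposite (0.29). The DHS at 8.7 kb (chr16:16854795-16855306) differed by -0.15 ± 0.21 at 24 h. Between 5.45% and 6.25% of the 36-base stretches of these 2 downstream DHS occur elsewhere in the genome.

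At Vpreb1 both DHS had a lower mean in Ikaros at each time from 2 h to 24 h and a higher one at 0 h. At 24 h the DHS at its coding start had 4.62, 4.54 and 5.34 in Ikaros replicates 4, 5 and 6 and 5.01, 5.67 and 5.59 in Control. Ikaros replicate 6 stood above Control replicate 4, so the groups overlap. The means were 4.83 ± 0.44 and 5.42 ± 0.36, a difference of -0.59 ± 0.27 (SE; 95% interval -1.15 to -0.030; adjusted p = 0.307). At 0 h the values were 4.97, 5.67 and 5.61 and 5.63, 5.09 and 4.67, overlapping, with a difference of 0.29 (adjusted p = 0.529). The change to 24 h was -0.88 ± 0.39 (adjusted p = 0.155). Over promoter DHS the median was 0.34 at 0 h and -0.42 for this change. The groups did not overlap at 6 h and 12 h, where the differences were -0.48 and -0.63 (adjusted p = 0.455 and 0.251). Within batches the difference at 24 h was -0.39, -1.14 and -0.25, and Ikaros was lower in 14 of 15 pairs from 2 h to 24 h, the exception being replicate 5 at 18 h.

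The DHS over the far Vpreb1 start and the Top3b promoter had 5.12, 5.22 and 4.93 in Ikaros and 5.59, 5.33 and 5.85 in Control at 24 h. All Ikaros values lay below all Control values. The difference was -0.50 ± 0.20 (adjusted p = 0.219), and within batches -0.46, -0.12 and -0.92. At 0 h, with 5.67, 5.38 and 5.76 against 5.43, 5.51 and 4.90, the groups overlapped and the difference was 0.32. The change from 0 h to 24 h had the second smallest adjusted p of the 17 for that comparison. It was -0.82 ± 0.28 (adjusted p = 0.0721), beside a median of -0.42 over promoter DHS as deposited. After median centring it was -0.99 (adjusted p = 0.0466), and without Control 0 h replicate 5 -0.94 (0.0445). It was -0.34 (0.650) without replicate 6 and -0.42 (0.259) with quantile normalization. Its F-test of the interaction of line and time had F = 2.41 (adjusted p = 0.379), next to F = 2.41 (0.379) at the Igll1 start.

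At Vpreb2 the start DHS had the smallest adjusted p of the 17 for change over time in Ikaros. Its Ikaros values were 4.11, 4.78 and 3.96 at 0 h, 3.56, 3.80 and 3.60 at 2 h and 3.42, 3.20 and 3.32 at 12 h. At 24 h they were 3.24, 3.44 and 3.50. The 3 values of 0 h lay above all Ikaros values of the later times, and the means ran from 4.29 ± 0.44 at 0 h down to 3.31 ± 0.11 at 12 h and 3.39 ± 0.13 at 24 h. The F-test over time in Ikaros gave F = 3.66 (adjusted p = 0.162). It passed with quantile normalization (adjusted p = 0.0334) and with the Ikaros libraries fitted alone (0.0400). Without replicate 5 it was F = 1.44 (adjusted p = 1.00).

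In Control the Vpreb2 start had 3.94, 4.14 and 3.35 at 0 h and 3.84, 3.41 and 4.17 at 24 h, overlapping with Ikaros at both times. The line difference was 0.48 ± 0.25 at 0 h (adjusted p = 0.219) and -0.41 ± 0.25 at 24 h (0.480). Its change was -0.89 ± 0.36 (0.119), the largest in size of the 17, beside a median of -0.42 over promoter DHS. Within batches the line difference was 0.17, 0.64 and 0.62 at 0 h and -0.60, 0.028 and -0.67 at 24 h. Its sign was shared by the 3 batches at 0 h and not at 24 h. The share of stretches common to Vpreb1 and Vpreb2 given above applies to all these values.

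The narrow DHS 0.9 kb upstream of Vpreb2 was lower in Ikaros at each of the 6 times by its means, from -0.79 at 2 h to -0.40 at 0 h. Its replicates spread widely, with 3.63, 2.66 and 3.91 in Ikaros and 4.14, 3.99 and 3.98 in Control at 24 h. The groups did not overlap at 2, 6 and 24 h, the SE of the difference was 0.39, and the adjusted p was 0.503 at 2 h and 0.474 at 24 h. The DHS 10.5 kb upstream (chr16:17969356-17969931, between genes) had the smallest adjusted p of the 17 at 2 h. There it had 4.70, 4.33 and 4.50 in Ikaros and 5.01, 4.91 and 5.35 in Control, without overlap, a difference of -0.58 ± 0.18 (adjusted p = 0.175). Its difference at 24 h was -0.42 ± 0.18 (0.254). The DHS 6.2 kb downstream (chr16:17986677-17987181) differed by -0.47 at 0 h (adjusted p = 0.185) and by -0.038 at 24 h. At 2 h it was the 1 member with a higher mean in Ikaros, with 4.39, 4.07 and 4.27 against 3.89, 4.00 and 3.79. All Ikaros values lay above all Control values there (difference 0.35 ± 0.24, adjusted p = 0.666).

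At the start of Vpreb3, whose product is not in the receptor, the mean difference lay between -0.44 at 18 h and -0.0051 at 6 h, and the groups overlapped at each time but 0 h. At 24 h the start DHS had 5.25, 4.48 and 4.87 in Ikaros and 5.58, 4.32 and 5.37 in Control, which overlap. The means were 4.87 ± 0.38 and 5.09 ± 0.67, a difference of -0.23 ± 0.26 (adjusted p = 0.764). The 95% interval was -0.76 to 0.31, which takes in 0 and at its lower end comes near the estimate at the Igll1 start (-0.77). At 0 h the values were 4.79, 4.82 and 4.87 and 4.94, 5.12 and 5.39, with all Ikaros below all Control (difference -0.33, adjusted p = 0.441). The Ikaros means stayed between 4.82 and 4.87 over the 6 times, and the change of the line difference from 0 h to 24 h was 0.099 ± 0.37. Whether Vpreb3 differs from Igll1 in its line difference was not tested.

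Among the other 6 DHS of the Vpreb3 window is the 1 member of the 17 with a higher mean in Ikaros at 24 h. The DHS 3.5 kb downstream (chr10:75951809-75952052, between genes) had 4.90, 5.13 and 3.83 in Ikaros and 3.92, 4.56 and 3.79 in Control at 24 h, overlapping, a difference of 0.53 ± 0.33 (adjusted p = 0.496). Its Control means ran from 5.05 ± 0.17 at 2 h to 3.96 ± 0.71 at 12 h, and its F-test over time in Control had the smallest adjusted p of the 17 (0.237). The DHS 1.2 kb downstream, over the last exon of Vpreb3 (chr10:75949497-75950089), had 4.89, 5.06 and 5.04 in Ikaros and 4.63, 4.89 and 3.78 in Control at 0 h. All Ikaros values were higher, by a mean of 0.56 ± 0.23 (adjusted p = 0.0943), and without Control replicate 5 by 0.79 (0.0237). Control replicate 6 was the low value of that group, and without it the difference was 0.24 (0.565).

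The DHS 2.6 kb downstream of the Vpreb3 start (chr10:75950857-75951007) had the second highest level of the 17, 5.28. At 24 h it had 5.20, 5.19 and 4.73 in Ikaros and 5.33, 5.39 and 5.80 in Control, without overlap, a difference of -0.47 ± 0.24 (adjusted p = 0.357). The remaining 3 lie upstream, at or in other genes. A narrow DHS 15.8 kb upstream (chr10:75932312-75932468, GC content 74.5%) is a promoter DHS of Chchd10, which encodes a mitochondrial protein, and of Mmp11, a matrix metalloproteinase gene. It differed by 0.62 at 0 h, without overlap, and by -0.17 at 24 h. The DHS 12.2 kb upstream (chr10:75935553-75936068), also at the Chchd10 promoter, was the steadiest, with differences between -0.11 and 0.14 over the 6 times. The DHS 10.0 kb upstream, in an exon of Gm867 (chr10:75937772-75938282), differed by 0.13 at 0 h and -0.15 at 24 h.

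**Figure D3:**
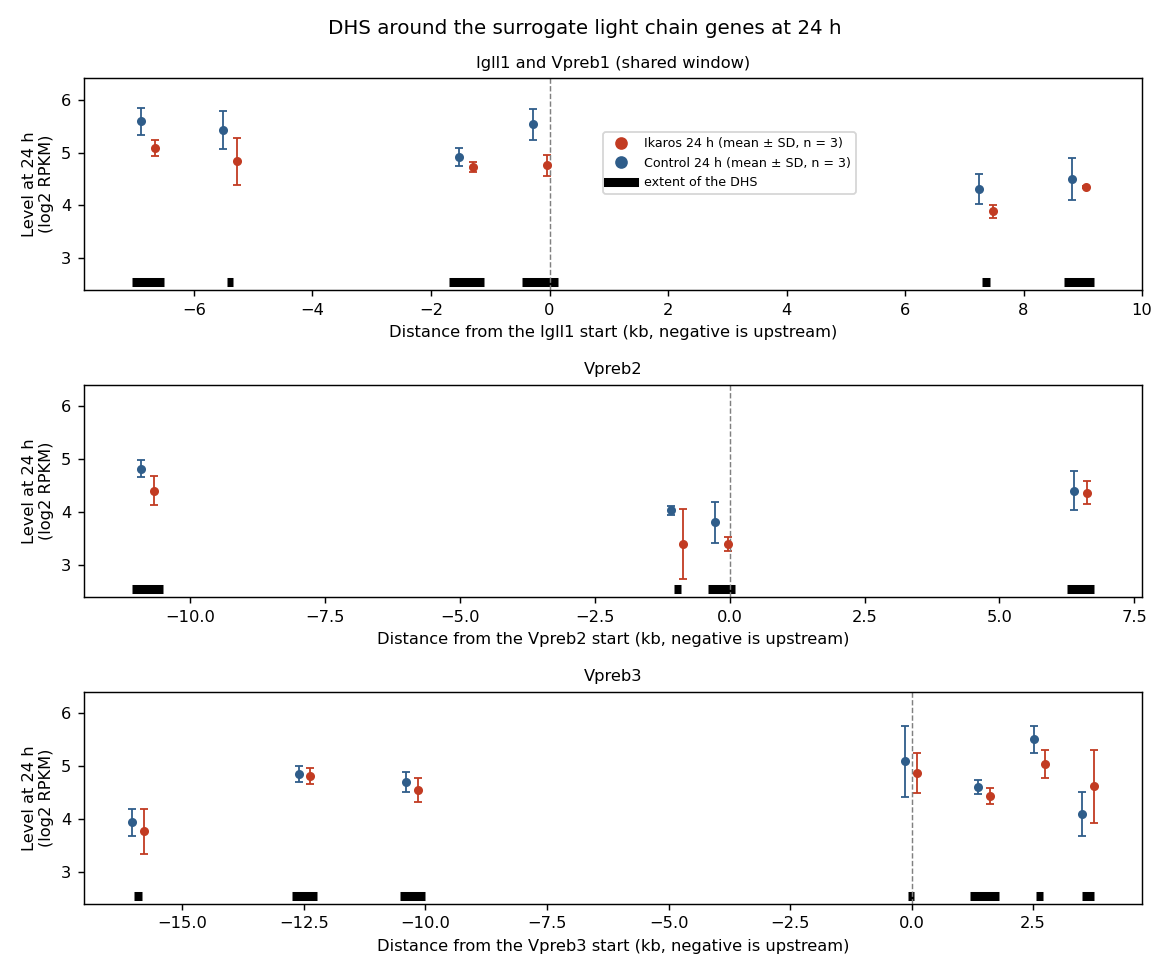
Level at 24 h (log2 RPKM, mean ± SD of 3 replicates) of the 17 DHS against distance from the Igll1, Vpreb2 or Vpreb3 start in kb, with negative values upstream, for Control (blue) and Ikaros (red). Black bars give the extent of each DHS, and points of a DHS are shifted sideways for clarity. The gap between the lines is widest at the Igll1 start (4.76 against 5.53), and Ikaros is above Control only at the DHS 3.5 kb downstream of the Vpreb3 start.

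Counting groups that do not overlap, all 3 Ikaros values lay below all 3 Control values at 1 of 17 for 0 h (11.2% of all DHS), 4 of 17 for 2 h (7.07%) and 5 of 17 for 6 h (10.9%). The counts were 3 for 12 h (8.72%), 2 for 18 h (11.2%) and 5 for 24 h (10.4%). In the other direction, all Ikaros values lay above all Control values at 2 of 17 for 0 h (12.4% of all DHS) and 1 of 17 for 2 h (6.49%). From 6 h on it was 0 of 17, against 11.1%, 14%, 12% and 15.1% of all DHS at the 4 later times. Of the counts below, that of 2 at 18 h is close to its background, and those at 2, 6 and 24 h are above it. Except at 0 h, the Igll1 start is in each count below. The plot of intervals sets the 17 differences at 24 h beside their changes from 0 h, where the intervals of the Igll1, Vpreb1 and Vpreb2 starts and that of the Vpreb3 last exon leave out 0 before adjustment.

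**Figure D4:**
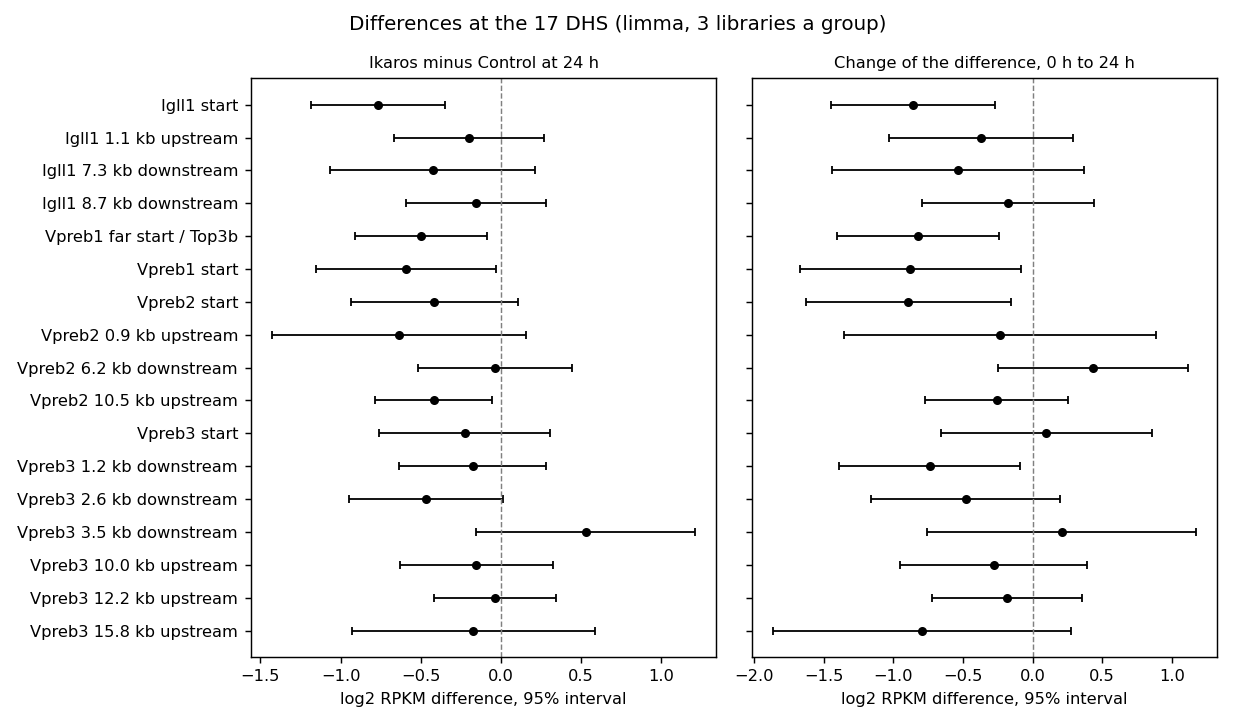
Ikaros minus Control at 24 h (left) and its change from 0 h to 24 h (right) in log2 RPKM for the 17 DHS, with 95% intervals from the limma fit before adjustment for 52788 tests. The dashed line is 0. At 24 h the interval is farthest from 0 at the Igll1 start (-1.18 to -0.35), and 4 of 17 intervals leave out 0 (14.7% of all DHS), against 5 of 17 for the change (25.1% of all DHS).

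Across the 36 libraries, the start DHS of Igll1 varied most like that of the far Vpreb1 start and Top3b (Pearson r = 0.80) and that of the Vpreb1 coding start (r = 0.69). For the start DHS of Vpreb2 and Vpreb3 r was 0.48 and 0.05. Over the Vpreb2 window r with the Igll1 start ran from -0.02 (6.2 kb downstream) to 0.66 (10.5 kb upstream). Over the Vpreb3 window it ran from -0.04 (3.5 kb downstream) to 0.68 (2.6 kb downstream). The DHS share their libraries and the noise correction, so these are descriptions. Over the 42 pairs within a window r ran from -0.51 to 0.80 with a median of 0.20, and over the 94 pairs in different windows from -0.33 to 0.69 with a median of 0.21. The pairs within a window were thus no more alike by their median than the others. The lowest value was that of the Vpreb2 start with the DHS 6.2 kb downstream of it. Outside the windows, the promoter DHS most like the Igll1 start were those of Gm37306 (r = 0.94), Ncf4 (0.92) and 1810059H22Rik with Gm15409 (0.90), where the median of all promoter DHS was 0.11. For the Vpreb1 coding start they were 1810059H22Rik with Gm15409 (0.74), Sema4a (0.74) and Atf3 (0.73), so that 1 promoter was shared with Igll1. For the Vpreb2 start they were 1700016B15Rik with Vps35l (0.78), Ddrgk1 (0.78) and Abhd18 with Gm2011 and Mfsd8 (0.77), and for the Vpreb3 start 1010001B22Rik with Zfp932 (0.54), Npas4 (0.53) and 5330438D12Rik with Cnot2 (0.52).

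The same motifs were searched over the whole length of the 17 DHS. GGGAA was in 12 of 17 DHS, and DHS of similar width hold it in 35.0% to 87.0% of cases, depending on width. The Igll1 start DHS is 1 of the 5 without these letters, while 87.0% of DHS of its width hold them. It does hold 2 matches to CCCNNGGG (32.6% of similar DHS hold any), 2 to CAGCTG (32.4%) and 3 to CAGGTG (35.0%). CCCNNGGG was in 5 of 17, CAGCTG in 2, CAGGTG in 8 and TGGGAA, which contains GGGAA, in 4.

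Genes that act with the surrogate light chain were followed through their promoter DHS. Of 17 genes of pre-B receptor signalling, 11 had promoter DHS, 20 in all. From 2 h to 24 h 0 of 20 passed, and at most 2 had an unadjusted p under 0.05. Over all DHS 0.195% to 1.33% were called at these times, and 10% to 15.8% had an unadjusted p under 0.05. At 0 h 1 was called higher in Ikaros, Vav1, an exchange factor that relays the receptor's signal (0.73, limma adjusted p = 0.0386). Of all DHS 12.9% were called at that time. At 24 h the Ikaros mean was below in 11 of 20, with a median of -0.14 beside -0.046 over promoter DHS. The smallest p there was at 1 of the Fyn promoter DHS, a kinase gene, with 3.67 ± 0.59 in Ikaros and 4.32 ± 0.26 in Control, a difference of -0.66 ± 0.30 (SE; limma adjusted p = 0.302). At 1 promoter DHS of Pik3ap1, an adaptor gene, it was -0.48 ± 0.22 (adjusted p = 0.306), and at 1 of Plcg2, a phospholipase gene, -0.35 ± 0.22 (0.492). The other promoter DHS differed by 0.055 for Pik3ap1 and by 0.097 for Plcg2. Between 0 h and 24 h the line difference moved by a median of -0.42 in this list and over all promoter DHS. For this move 0 of 20 were called, against 6.26% of all DHS, and 4 had an unadjusted p under 0.05, against 25.1%.

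Of 17 genes of regulators known to act on these loci, 14 had promoter DHS, 23 in all. At 0 h 7 of 23 were called higher in Ikaros and 0 lower, where 12.9% of all DHS were called in either direction. No share called was counted over promoter DHS alone. The list median was 0.47 beside 0.34 over promoter DHS. At 24 h 0 of 23 were called, against 1.33% of all DHS, and 3 had an unadjusted p under 0.05, against 14.7%. The median was 0.047. The smallest p was at the promoter of Pax5, the commitment factor of B cells, with 5.34 ± 0.039 in Ikaros and 6.06 ± 0.088 in Control, a difference of -0.72 ± 0.19 (SE; limma adjusted p = 0.0567). At 1 promoter DHS each of Tcf12, an E protein gene, and Bach2, a repressor gene, the differences were 0.85 ± 0.35 (0.232) and 1.04 ± 0.44 (0.250). The other promoter DHS differed by 0.31 and 0.31 for Tcf12 and by 0.17 and -0.18 for Bach2. For the move of the line difference between 0 h and 24 h, 3 of 23 were called lower, where 6.26% of all DHS were called in either direction. These were at Pax5 (-1.02, limma adjusted p = 0.0292), Irf8, an interferon regulatory factor gene (-0.98, 0.0372) and 1 promoter DHS of Tcf4, an E protein gene (-0.95, 0.0165). The other Tcf4 promoter DHS moved by -0.54, -0.15 and -0.55 and were not called. The list median was -0.45 beside -0.42 over promoter DHS.

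Of 11 further genes of the pro-B and pre-B stage, 5 had promoter DHS, 6 in all. At 0 h 1 of 6 was called higher in Ikaros, Cd24a, which encodes a surface antigen of early B cells (0.78, limma adjusted p = 0.0133). The share of all DHS called was 12.9%. At 24 h 0 of 6 were called, against 1.33% of all DHS, and 2 had an unadjusted p under 0.05, against 14.7%. The median was -0.17. Cd93, a gene for a surface protein of immature B cells, had 4.15 ± 0.27 in Ikaros and 4.72 ± 0.18 in Control, a difference of -0.58 ± 0.17 (SE; limma adjusted p = 0.0765). Rag1, which encodes the recombinase, stood on the other side with 0.78 ± 0.36 (0.306). At the Pax5 and Cd93 promoters the adjusted p was thus close to that of the Igll1 start, without passing.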

How the data were processed

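DNase-seq was measured in 36 libraries of the Ikaros and Control lines of B3. As the study's methods describe, reads cut to 36 bases were mapped to mm10 (Bowtie2). Peaks, both narrow and broad, came from HOMER for every replicate, and the authors counted reads in the merged set with bedtools. DHS with few reads at all times were removed by the authors, and the rest were scaled by RPKM and TMM and corrected for systematic noise with ARSyN, a step that can narrow the spread between replicates and tie group means together. The values as deposited are log2; read back from base 2 and multiplied by DHS width they sum to 369487 to 432755 RPM in a library, while base e would give more reads than a library has.

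DHS were annotated with GENCODE vM21 on GRCm38, and those within 1000 bp of a start were called promoter DHS. Coordinates are those of the file, and the sources used here do not say if their starts are 0-based or 1-based, which leaves 1 bp open. Group means of the 12 groups were fitted to all 36 libraries with limma 3.58.1 in R 4.3.3 (eBayes with an intensity trend), with 8 contrasts and 3 F-tests, two-sided, and Benjamini-Hochberg adjustment over 52788 DHS at a threshold of 0.05. The fit was also run on simulated data with independent noise and planted shifts larger than the differences described here. That run does not cover the effect of the noise correction or differences of the size described. Every member is described. Named in full were DHS within 1000 bp of a start of the 4 genes, DHS passing a test and promoter DHS of other genes. For lists, those with the smallest p at 24 h were named. The members and lists were chosen with earlier results of these data known. The labels tie replicate numbers 4, 5 and 6 to batches 11, 12 and 13, so the numbers pair the lines. In the deposited values, deviations of same-numbered libraries from their group means had a median correlation of -0.01, against 0.01 for other numbers, and 3 of 18 pairs of lines at 1 time exceeded 0.1. A fit with a replicate block and the other alternatives are given in the closing section. No 2 libraries were identical. Some marker genes are not reported here.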

Additional observations from a re-analysis of the deposited data

How the results depend on the processing

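The counts of DHS called among the 17 were 0 in each comparison. They stayed 0 with a replicate block, without the intensity trend, with robust eBayes, with DHS of low level filtered out, with trends in level, GC content and width removed, and with windows of 10 kb (15 DHS) or 50 kb (25 DHS). With a replicate block the adjusted p of the Igll1 start at 24 h was 0.0696, and the block changed no call. Median centring gave 2 for the change from 0 h to 24 h. Quantile normalization gave 1 at 24 h and 1 for change over time in Ikaros. A spread per group gave 1 at 12 h and 1 at 24 h. Fitting only the groups of the comparison gave 2 for change over time in Ikaros, the Vpreb2 start and the Vpreb3 last exon. Leaving out a replicate number or 1 library gave 0 to 1 at 0, 6, 12 and 24 h, for the change from 0 h and for the interaction, and 0 in the other comparisons. At 0 h it came without Control replicate 5, at the Vpreb3 last exon. The value of 1 at 24 h, at 6 h and for the interaction came without replicate 4, and was the Igll1 start. At 12 h it came without replicate 4 or Control replicate 4 (-0.91 for the Igll1 start). For the change from 0 h it came without replicate 4, without 0 h replicate 4 of Control (-1.06) or Ikaros (-1.01), or without Control 0 h replicate 5. Without replicate 6 the change at the Igll1 start was -0.44. The cause was not tested. With no read counts behind the values, counting error at the narrow DHS cannot be given.

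Differences near 0 changed sign. At 0 h the Igll1 start went to -0.18 with quantile normalization and -0.075 with trends removed, and the DHS 12.2 kb upstream of Vpreb3 to -0.057 and -0.12. The change at the Vpreb3 start went to -0.069 with median centring. With libraries left out, values ran from -0.13 to 0.45 for the Igll1 start, -0.040 to 0.76 for the Vpreb1 coding start and -0.81 to 0.23 for the DHS 0.9 kb upstream of Vpreb2 at 0 h, and from -0.61 to 0.018 for the Vpreb3 start at 24 h. For the change from 0 h they ran from -0.29 to 0.34 at the Vpreb3 start, -0.65 to 0.13 at the DHS 0.9 kb upstream of Vpreb2 and -0.55 to 0.083 at the DHS 10.0 kb upstream of Vpreb3, and for the change from 2 h from -0.80 to 0.24 at the Igll1 start. None of these had an adjusted p under 0.05 under any alternative.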

Other observations

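Between 20 kb and 50 kb from the 4 genes lay 8 further DHS, among them the promoter DHS of Derl3, a gene of protein quality control in the endoplasmic reticulum, Ppm1f, a phosphatase gene, and Gm49595. None passed the threshold in any of the 11 comparisons (limma). The Derl3 promoter had the smallest adjusted p of the 8, with a change of the line difference from 0 h to 24 h of -0.77 ± 0.27 (SE; adjusted p = 0.0780) and a difference of -0.42 ± 0.19 at 24 h (0.309). It was named after its values were seen.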
